A study of Homo sapiens with 30 samples.

Results

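The data describe how far the response of RCC4 cells to 18 h of hypoxia depends on VHL. For each gene, the 18 h minus 0 h change in VHL-restored cells was subtracted from the same change in VHL-null cells, within each replicate number, and this difference of changes is called the interaction here. It was taken from 8 of the 30 arrays of the series, and 7614 of 12690 genes were bright enough to be tested. The 4 groups held 2 arrays each: VHL-null cells after 18 h of hypoxia, VHL-null cells at 0 h, VHL-restored cells after 18 h of hypoxia, and VHL-restored cells at 0 h. RCC4 is a renal carcinoma line that lacks functional VHL, and the VHL-restored cells carry wild-type VHL put back into it. The labels name neither the vector nor any separate clones, so other differences between the 2 cell populations cannot be told apart from VHL. Hypoxia meant monolayer culture in an anoxic incubator with oxygen below 0.01%. The submitters called the 0 h and 18 h replicates independent. The other 22 arrays are single arrays: VHL-null and VHL-restored RCC4 at 1, 2, 4 and 6 h of hypoxia and after 1 or 4 h of reoxygenation following 18 h, and H1299 lung and HCT116 colon carcinoma cells, each p53-null and p53 wild-type, at 0 h and in hypoxia.

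VHL is the substrate-recognition part of a ubiquitin ligase. In oxygen, prolyl hydroxylases mark the alpha subunits of the hypoxia-inducible factors (HIF), VHL binds the marked protein, and the protein is degraded. In hypoxia the mark is not made, HIF accumulates, and it binds short DNA elements with the core ACGTG or GCGTG near genes of glycolysis, mitophagy, vascular tone and angiogenesis. Renal carcinoma cells without VHL are known to keep HIF in oxygen.

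The median listed intensity was 145 to 156 on the replicate 1 arrays and 201 to 222 on the replicate 2 arrays, and the 2 replicate numbers coincide with 2 array sets that differ in their blank control entries. Null entries made up 27.1% to 33.4% of the probe sets on 7 of the 8 arrays and 18.4% on replicate 2 of VHL-null at 0 h, which stood apart. All 7614 tested genes were listed on all 8 arrays. VHL itself was dim, at 14 and 76 in VHL-null cells at 18 h and 20 and 109 at 0 h, against 11 and 2 in VHL-restored cells at 18 h and 26 and 40 at 0 h, and these values do not check the genotype. Of 12 renal markers 5 were on the array, and 3 to 4 of them lay above the array median. For simple epithelial markers it was 3 of 4, with summed intensities of 1541 to 2222 on VHL-null arrays against 2278 to 3138 on VHL-restored arrays. Endothelial markers lay above the median in 5 to 6 of 8, fibroblast markers in 2 to 4 of 8, and leukocyte markers in 2 to 3 of 6. The part of these differences in the results was not tested.

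The interaction passed the test in 43 of 7614 genes (0.565%; limma with the replicate number as a block, Benjamini-Hochberg adjusted p below 0.05). It was negative in 38 of them (0.499%), meaning that VHL-null cells had the smaller or more negative change, and positive in 5 (0.0657%). Most of the 38 were genes that VHL-null cells already held high in oxygen and that VHL-restored cells raised only in hypoxia. BNIP3, ADM, PPP1R3C, NRN1 and ENO2 had the largest negative values, between -2.27 and -1.84 on the log2 scale. All 43 had the same sign in both replicate numbers, which their selection from these replicates nearly fixes. Across all tested genes the standard deviation of the interaction was 0.18 and its median was -0.03. With no block in the model the same limma test gave 0 calls (45 genes had an unadjusted p below 0.05, and the smallest adjusted p was 0.404). A fit of only the 2 interaction values per gene called 351, including the 43. That fit gave every gene the same spread, so its count does not show that the 2 replicates of any given gene agree.

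**Figure D1:**
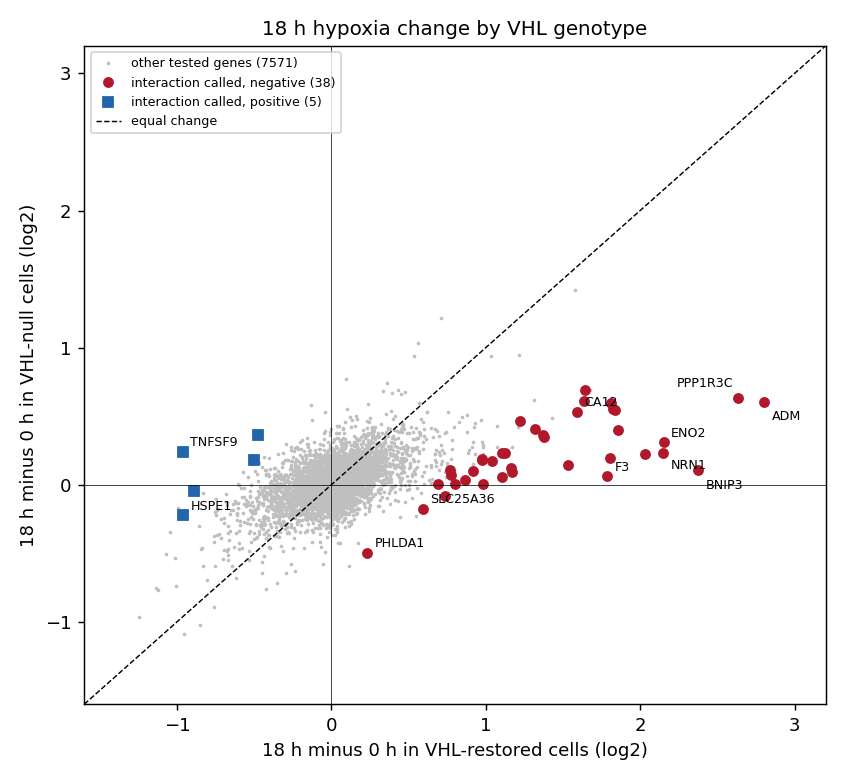
Each point is a gene, with its 18 h minus 0 h change in VHL-null cells on the vertical axis and in VHL-restored cells on the horizontal axis (both log2, mean of 2 replicates). The 38 genes with a negative interaction (red circles) lie below the line of equal change, most with VHL-null changes between 0 and 0.69, and the 5 with a positive one (blue squares) lie above it, against 7571 other tested genes in grey.

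Among fits that left out 1 array, the fewest calls came without a VHL-null 0 h array. Leaving out replicate 1 of that group left 2 called genes, ENO2 and NRN1, and leaving out replicate 2 left 7: ADM, CA12, EDN1, ENO2, NRN1, PDK1 and PPP1R3C. Leaving out any of the other 6 arrays gave 67 to 117 calls. In these fits the remaining array of a group is assumed to vary like the other groups. The weight that limma gave to a spread shared across genes (its prior degrees of freedom) also changed. It was 13.3 in the main fit, 4.16 without either VHL-null 0 h array, and 35.9 or higher without any other array. The counts mix this weight with the array left out and do not measure the effect of an array alone. ENO2 and NRN1 were called in all 8 of these fits, and ADM, CA12, EDN1, PDK1 and PPP1R3C in 7.

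The 4 group levels show where each interaction came from. This is a description, since the same arrays chose the genes. In VHL-restored cells 37 of the 38 genes rose over 18 h, with a median change of 1.27 over the 38 (3.70% of all tested genes were called higher there). In VHL-null cells 4 rose, ADM, TRIB3, CA12 and HILPDA, none fell, and the median change was 0.19 (0.276% of tested genes higher). At 0 h, 33 of the 38 were higher in VHL-null than in VHL-restored cells (3.10% of tested genes). At 18 h, 5 were higher (3.62%), 10 were lower (3.97%) and 23 were not called. For the 37 that rose in VHL-restored cells, the VHL-null level at 0 h lay a median of 73.3% of the way along the VHL-restored climb on the log2 scale, beyond 50% in 27 genes and beyond 100% in 6. The VHL-null change was a median of 14.5% of the VHL-restored change.

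BNIP3, a mitophagy receptor of the outer mitochondrial membrane, had the most negative interaction. Its intensity was 319 and 523 in VHL-null cells at 18 h and 299 and 506 at 0 h, against 310 and 511 in VHL-restored cells at 18 h and 34 and 120 at 0 h. The VHL-restored 0 h arrays were the low ones, and the other 6 overlapped. The interaction was -2.27 (SE 0.225, adjusted p = 2.58e-05), and the VHL-null 0 h level stood at 94.3% of the VHL-restored climb. BNIP3L, its paralog in mitophagy, was listed at 637 and 1330 in VHL-null cells at 18 h and 618 and 1211 at 0 h, against 776 and 1554 in VHL-restored cells at 18 h and 328 and 753 at 0 h. Its interaction was smaller, at -1.04 (SE 0.153, adjusted p = 0.00280). MTFP1, which promotes mitochondrial fission, was at -0.66 (adjusted p = 0.0377).

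Stretches of promoter are printed for genes from both directions, to show where the HIF core letters lie. They come from RefSeq on GRCh38.p14, read 5′ to 3′ on the gene's strand, with every ACGTG or GCGTG on either strand in capitals (CACGT and CACGC are these cores on the opposite strand). BNIP3 is at chr10:131982014-131982083 (minus strand), ADM at chr11:10304948-10304997 (plus), ENO2 at chr12:6914440-6914489 (plus), PPP1R3C at chr10:91633192-91633241 (minus), EDN1 at chr6:12287902-12287988 (plus) and HSPE1, a gene with a positive interaction, at chr2:197500329-197500378 (plus).
BNIP3: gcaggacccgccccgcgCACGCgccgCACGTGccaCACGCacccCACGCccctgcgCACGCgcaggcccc
ADM: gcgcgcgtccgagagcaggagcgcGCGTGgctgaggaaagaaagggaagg
ENO2: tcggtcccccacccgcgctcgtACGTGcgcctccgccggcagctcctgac
PPP1R3C: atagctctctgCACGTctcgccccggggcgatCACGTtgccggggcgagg
EDN1: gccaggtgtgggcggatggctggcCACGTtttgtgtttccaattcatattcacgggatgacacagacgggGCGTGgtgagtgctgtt
HSPE1: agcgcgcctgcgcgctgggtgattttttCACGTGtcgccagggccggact

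Of the 38 genes with a negative interaction, 31 matched a promoter entry by symbol, with 49 start sites. Either core was found on either strand of the 250 bases before the start in 31 of the 49 windows (63.3%). The share was 53.1% of the 9182 windows of tested genes and 43.2% of all 35116 windows. ACGTG alone was in 30.6% of the 49, against 21.0% of tested and 18.5% of all windows. Among the 5 genes with a positive interaction, 3 of 7 windows held either core. Counted per gene with an entry, a core was found in 74.2% of the negative genes (23 of 31), in 3 of 4 positive genes and in 63.4% of tested genes. A CACGTG counts on both strands. The stretches printed above all hold a core, whereas the windows of NRN1 and F3, also among the most negative genes, held 0. A match is a run of letters and not a binding site, and these windows leave out distant elements.

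Among genes of secreted and surface proteins, ADM, which encodes the vasodilator adrenomedullin, had intensities of 526 and 842 in VHL-null cells at 18 h and 375 and 524 at 0 h, against 516 and 765 in VHL-restored cells at 18 h and 53 and 116 at 0 h. It rose in both genotypes, by log2 0.61 in VHL-null cells (adjusted p = 0.0460) and by 2.80 in VHL-restored cells (adjusted p = 8.01e-10), and the 2 genotypes overlapped at 18 h. The interaction was -2.20 (SE 0.180, adjusted p = 3.18e-06). EDN1, endothelin-1, a vasoconstrictor, behaved otherwise at 18 h: it had 412 and 927 in VHL-null cells at 18 h and 395 and 771 at 0 h, against 709 and 1236 in VHL-restored cells at 18 h and 200 and 351 at 0 h. VHL-null cells were higher at 0 h, by 0.96, and lower at 18 h, by -0.65 (adjusted p = 0.000773), and the interaction was -1.61 (SE 0.149, adjusted p = 1.42e-05).

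NRN1, the membrane-anchored neuritin, was at 284 and 314 in VHL-null cells at 18 h and 249 and 269 at 0 h, against 197 and 183 in VHL-restored cells at 18 h and 29 and 35 at 0 h. The genotypes did not overlap at either time, and the VHL-restored rise ended below the VHL-null level in oxygen. Its interaction was -1.92 (SE 0.145, adjusted p = 2.51e-06). F3, tissue factor, which starts coagulation, was likewise higher in VHL-null cells at both times in each replicate, at 223 and 518 in VHL-null cells at 18 h and 211 and 525 at 0 h, against 105 and 311 in VHL-restored cells at 18 h and 9 and 126 at 0 h. The F3 value of -1.72 (SE 0.322, adjusted p = 0.0185) rests in part on the intensity of 9: with a pseudocount of 64 in place of 16 it was -1.08, and with 4 it was -2.15 with an adjusted p of 0.0691. TGFA, a ligand of the epidermal growth factor receptor, was at -1.27 (adjusted p = 0.0113), and STC2, a secreted glycoprotein, at -1.03 (adjusted p = 0.0323). TMEM158 (-1.22, adjusted p = 0.0441) also contains a very low value, 4 on a VHL-restored 0 h array, and lost its call under both other pseudocounts, at -0.60 with 64 (adjusted p = 0.186) and -1.79 with 4 (adjusted p = 0.0794).

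CA12, a membrane carbonic anhydrase that handles acid outside the cell, was far apart between the genotypes at both times. It was at 686 and 779 in VHL-null cells at 18 h and 478 and 553 at 0 h, against 239 and 256 in VHL-restored cells at 18 h and 69 and 80 at 0 h. No group overlapped another, and CA12 rose in both genotypes, by log2 0.53 in VHL-null cells and 1.59 in VHL-restored cells. The interaction was -1.06 (SE 0.138, adjusted p = 0.000608). That sign belongs to the log2 scale: in intensity units CA12 gained 208 and 226 in VHL-null cells against 170 and 176 in VHL-restored cells. After scaling each array to a median gene of 100, the linear interaction of CA12 was 23.0, the only reversed sign among the 43 genes, and 36 of the 38 negative genes were also negative in both replicates on the linear scale (the exceptions being CA12 and CDCP1). This check was chosen after the data were seen.

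**Figure D2:**
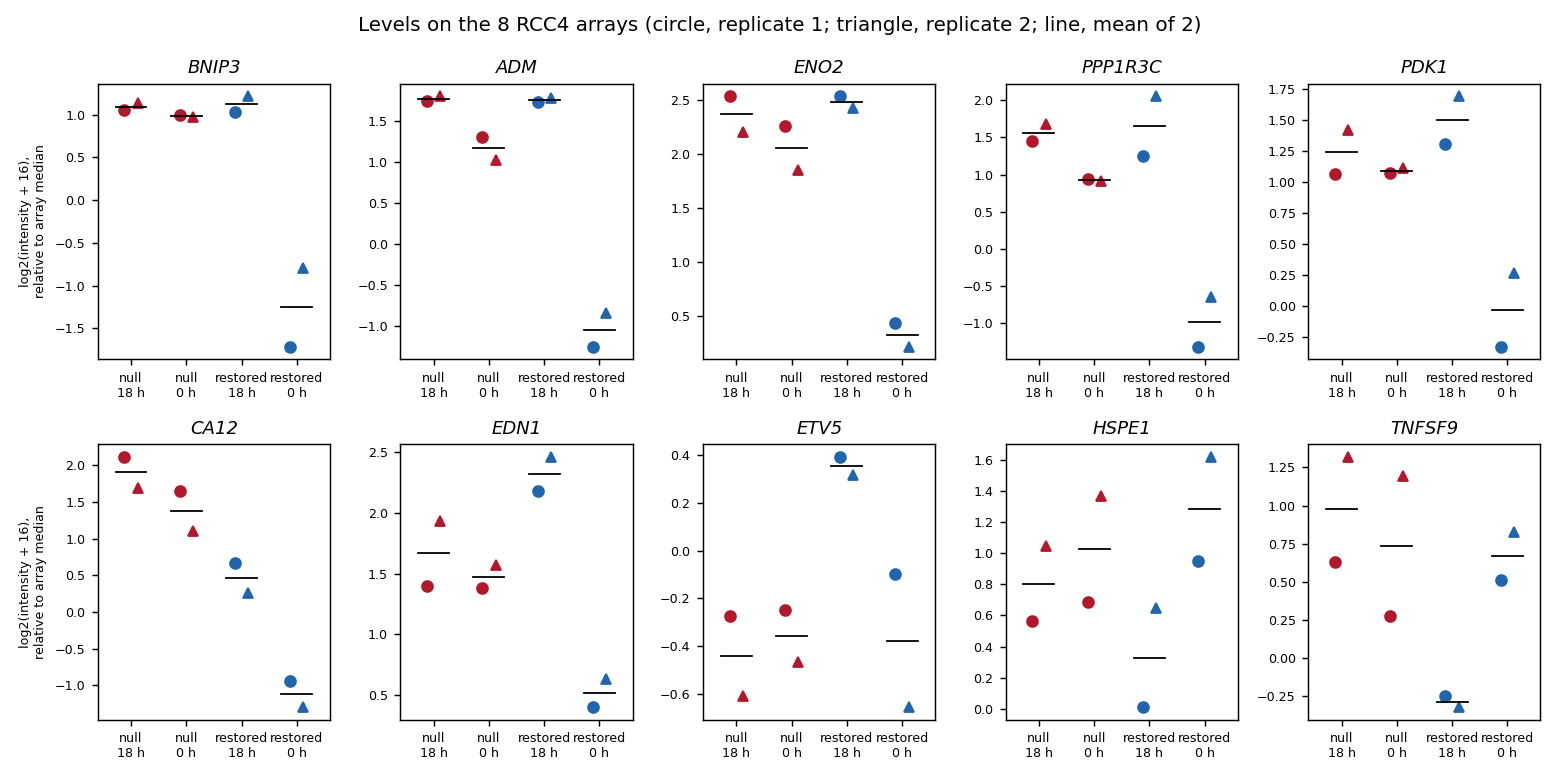
Log2(intensity + 16) relative to the array median for 10 genes in VHL-null (red) and VHL-restored (blue) cells at 18 h and 0 h. Circles are replicate 1, triangles replicate 2 and lines the mean of both. For BNIP3, ADM, ENO2, PPP1R3C and PDK1 the VHL-restored 0 h arrays are the low ones, for EDN1 and ETV5 the VHL-restored 18 h arrays are the highest, and for HSPE1 and TNFSF9 the VHL-restored 18 h mean is the lowest.

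Enzymes of glucose use made up the next group. ENO2, a glycolytic enolase, had 921 and 1112 in VHL-null cells at 18 h and 737 and 942 at 0 h, against 909 and 1200 in VHL-restored cells at 18 h and 205 and 259 at 0 h. Its 2 replicate interactions were close, at -1.82 and -1.86, and the mean of -1.84 had an SE of 0.144 (adjusted p = 2.51e-06). PDK1, the kinase that restrains pyruvate dehydrogenase, was at 323 and 641 in VHL-null cells at 18 h and 317 and 558 at 0 h, against 381 and 718 in VHL-restored cells at 18 h and 115 and 269 at 0 h. The PDK1 interaction was -1.38 (SE 0.166, adjusted p = 0.000232). PFKFB4, which sets the level of a glycolytic activator, and HK1, a hexokinase, had interactions of -1.01 (adjusted p = 0.00413) and -0.87 (adjusted p = 0.0113). MPI, which interconverts mannose and fructose phosphates, was at -0.79, and AK4, a mitochondrial adenylate kinase, at -0.81.

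Glycogen genes went with them in part. PPP1R3C, which targets protein phosphatase 1 to glycogen, had 427 and 773 in VHL-null cells at 18 h and 288 and 486 at 0 h, against 364 and 928 in VHL-restored cells at 18 h and 50 and 135 at 0 h. Its interaction was -2.00 (SE 0.212, adjusted p = 5.76e-05). GYS1, muscle-type glycogen synthase, had 571 and 746 in VHL-null cells at 18 h and 448 and 564 at 0 h, against 740 and 964 in VHL-restored cells at 18 h and 263 and 440 at 0 h. GYS1 was higher in VHL-null cells at 0 h, by 0.48, and lower at 18 h, by -0.43, with an interaction of -0.91 (adjusted p = 0.0185). In lipid metabolism, SCD, the stearoyl-CoA desaturase, was at -1.08 (adjusted p = 0.00336), and HILPDA, a lipid droplet protein that inhibits triglyceride lipolysis, at -0.96 (adjusted p = 0.0363). PLIN2, a lipid droplet coat protein, had an interaction of -0.90 that did not pass (adjusted p = 0.119).

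NDRG1, a hypoxia-responsive gene, was among the brightest, at 1489 and 1714 in VHL-null cells at 18 h and 1162 and 1315 at 0 h, against 1325 and 1658 in VHL-restored cells at 18 h and 290 and 581 at 0 h. Its interaction was -1.45 (SE 0.231, adjusted p = 0.00533), larger in replicate 1 (-1.85) than in replicate 2 (-1.06). TRIB3, a stress-induced pseudokinase, had 429 and 548 in VHL-null cells at 18 h and 258 and 437 at 0 h, against 335 and 466 in VHL-restored cells at 18 h and 78 and 135 at 0 h, with an interaction of -1.29 (adjusted p = 0.000208). UFSP2, a protease of the UFM1 modifier, had an interaction of -1.81 (adjusted p = 2.22e-05), but its other probe set was at -0.09. In RefSeq the gene overlaps CFAP96 by 17531 bases and ANKRD37, known as a HIF target, by 1187 bases. Which transcript the brighter probe set reads is uncertain. MRPL12 also had probe sets that disagreed, at -0.87 and 0.69. The MRPL12 probe set at 0.69 was dim, with intensities of 5 to 44, and was 0.05 in replicate 1 and 1.33 in replicate 2. Of the 13 other probe sets of called genes that were listed on all 8 arrays, 12 had the sign of the gene. These 12 include the UFSP2 probe set at -0.09, which was -0.29 in replicate 1 and 0.11 in replicate 2.

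**Figure D3:**
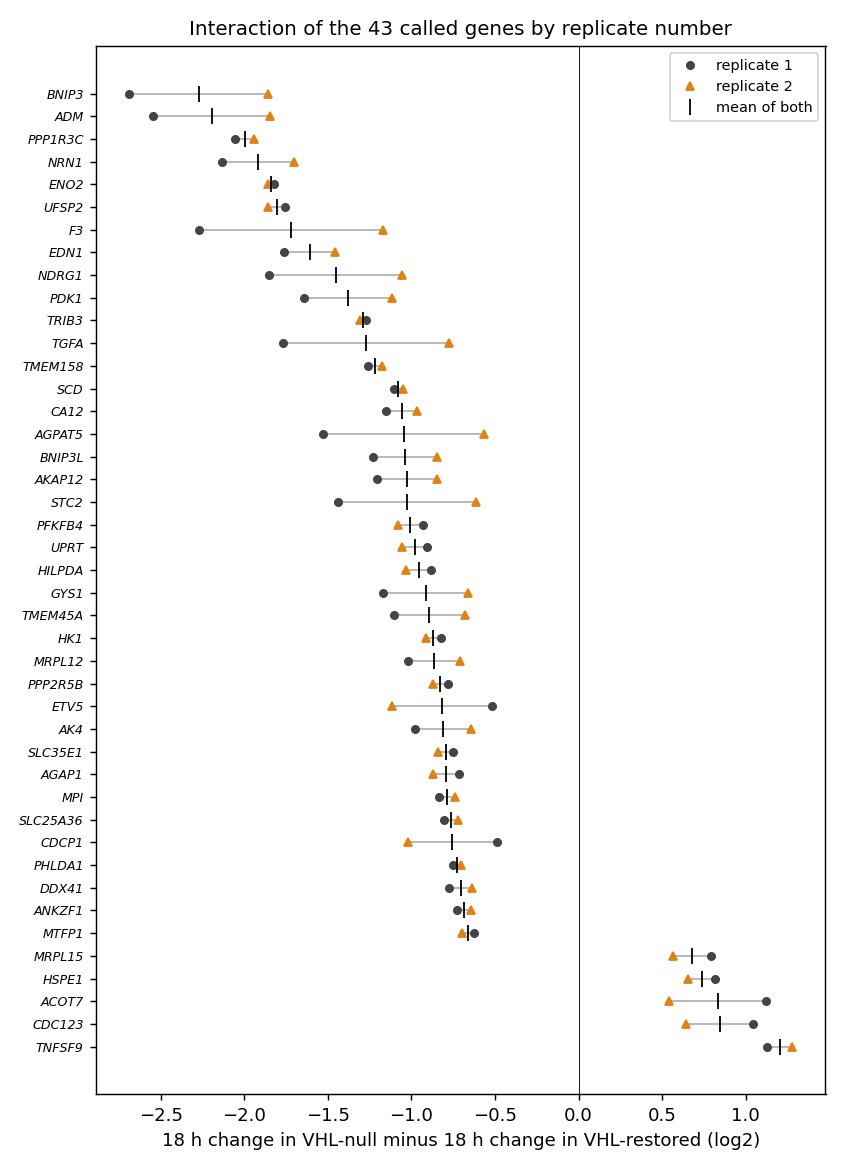
Interaction of each of the 43 called genes (log2) in replicate 1 (dark circles), replicate 2 (orange triangles) and their mean (bar). All 43 have the same sign in both replicates. Of the 38 negative genes, 25 are further from 0 in replicate 1, with a median of -1.13 in replicate 1 and -0.94 in replicate 2.

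Several of the 38 lie outside these roles. AKAP12, a scaffold of protein kinase A, had 345 and 1118 in VHL-null cells at 18 h and 278 and 888 at 0 h, against 642 and 1220 in VHL-restored cells at 18 h and 228 and 512 at 0 h. Within each replicate it was higher in VHL-null cells at 0 h and lower at 18 h, with an interaction of -1.03 (adjusted p = 0.0113). CDCP1, a surface substrate of Src kinases, had 235 and 556 in VHL-null cells at 18 h and 153 and 453 at 0 h, against 115 and 366 in VHL-restored cells at 18 h and 50 and 133 at 0 h. VHL-null cells were higher at both times, and the interaction was -0.76 (adjusted p = 0.0396), at -0.49 in replicate 1 and -1.02 in replicate 2. AGPAT5, UPRT, TMEM45A, PPP2R5B, SLC35E1 and AGAP1 had interactions between -1.05 and -0.79.

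In 5 of the 38 genes VHL-null cells were not higher in oxygen: 4 were not called at 0 h and 1 was lower. ETV5, an ETS-family transcription factor, was at 118 and 145 in VHL-null cells at 18 h and 117 and 176 at 0 h, against 194 and 267 in VHL-restored cells at 18 h and 137 and 134 at 0 h. VHL-restored cells at 18 h were the high ones and the other 3 groups overlapped. Its interaction was -0.82 (adjusted p = 0.0244), with a genotype difference of 0.02 at 0 h and -0.80 at 18 h. SLC25A36, a mitochondrial pyrimidine nucleotide carrier, was at -0.76 (adjusted p = 0.0113), and ANKZF1, which acts on stalled ribosomes, at -0.69 (adjusted p = 0.0244); both were likewise not called at 0 h and lower in VHL-null cells at 18 h. DDX41, an RNA helicase at -0.71 (adjusted p = 0.0377), had a genotype difference of 0.31 at 0 h, which did not pass (adjusted p = 0.0848), and of -0.39 at 18 h. PHLDA1, a pleckstrin homology-like domain protein, was lower in VHL-null cells at both times, at 178 and 226 at 18 h and 265 and 333 at 0 h, against 496 and 716 in VHL-restored cells at 18 h and 447 and 609 at 0 h. Neither 18 h change of PHLDA1 passed, at -0.49 in VHL-null and 0.23 in VHL-restored cells, while the interaction did (-0.73, adjusted p = 0.0490).

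**Figure D4:**
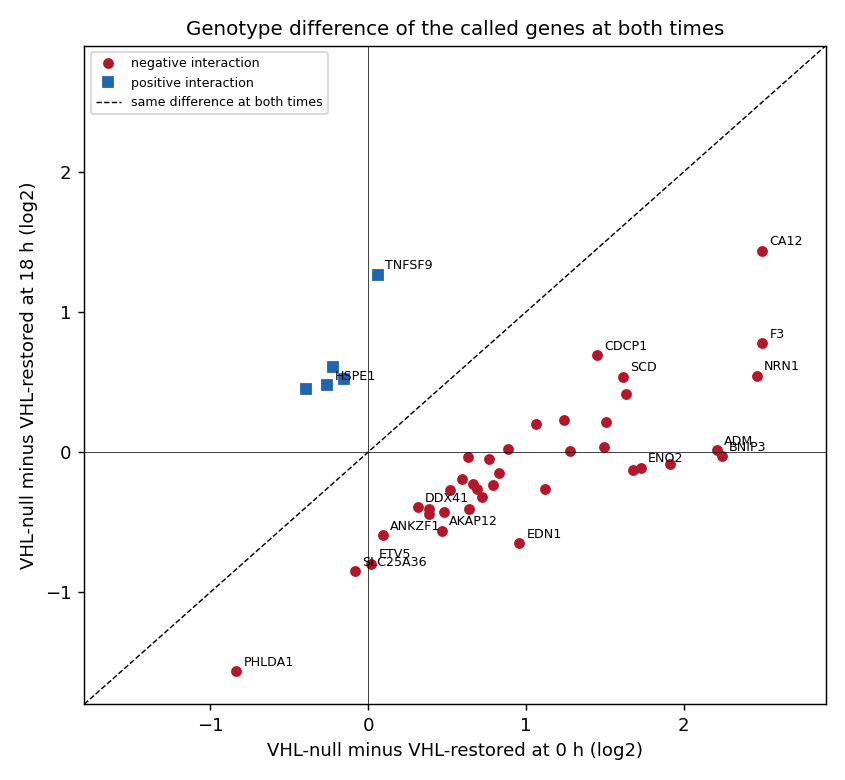
VHL-null minus VHL-restored difference of the 43 called genes at 18 h (vertical) against 0 h (horizontal), both log2. The 38 negative genes (red circles) lie below the line of equal difference, and 13 of them are above 0 at 18 h. CA12, F3, NRN1, SCD and CDCP1 are the 5 called higher at 18 h. BNIP3, ADM and ENO2 lie near 0, and EDN1 and AKAP12 cross below it. The 5 positive genes (blue squares) lie above the line.

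The 5 genes with a positive interaction fell in VHL-restored cells (2.88% of tested genes did) and passed no test in VHL-null cells. TNFSF9, the ligand of the T-cell costimulator 4-1BB, was at 235 and 598 in VHL-null cells at 18 h and 175 and 592 at 0 h, against 118 and 165 in VHL-restored cells at 18 h and 218 and 404 at 0 h. VHL-restored cells at 18 h were the low ones, and the interaction was 1.20 (SE 0.229, adjusted p = 0.0202). HSPE1, the mitochondrial co-chaperonin, was at 223 and 492 in VHL-null cells at 18 h and 238 and 668 at 0 h, against 145 and 339 in VHL-restored cells at 18 h and 301 and 711 at 0 h. The HSPE1 groups overlapped in raw intensity, and the interaction was 0.74 (SE 0.139, adjusted p = 0.0185). MRPL15, a protein of the mitochondrial ribosome, was at 0.68, CDC123, an assembly factor of translation initiation factor eIF2, at 0.84, and ACOT7, an acyl-CoA thioesterase, at 0.83. With quantile normalization none of the 5 was called, and 17 of the 38 negative genes were.

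Pathway lists place the called genes among their relatives. The lists share members, so some calls are counted more than once. PPP1R3C, STC2, HILPDA and F3 are on the HIF target list and also on the glycogen, ATF4, lipid droplet and matrix lists in turn. Of 37 tested HIF targets outside glycolysis, 13 had a negative call and 0 a positive one, the median interaction was -0.52, and 3 were above 0. Over all tested genes 0.499% had a negative call and 0.0657% a positive one, the median was -0.03 and 41.0% were above 0, and the counts of every list below stand against these shares. The list median was -0.67 in replicate 1 and -0.37 in replicate 2. DDIT4, an inhibitor of mTORC1, had an interaction of -0.70 that did not pass (adjusted p = 0.132), although it rose by 0.62 in VHL-null cells and by 1.31 in VHL-restored cells. Of 21 glycolysis genes, 4 were called, all negative (median -0.24), and of 8 glycogen genes 2 were, with a median of -0.08. The HIF subunits and regulators had 0 calls among 8 genes and a median of 0.02. HIF1A, the oxygen-labile HIF subunit, had an interaction of 0.01 and was lower in VHL-null cells at both times, at 323 and 516 at 18 h and 367 and 667 at 0 h, against 653 and 1358 in VHL-restored cells at 18 h and 885 and 1504 at 0 h.

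Stress lists differed in direction. Endoplasmic reticulum chaperones and their regulators had 0 calls among 14, but 1 was above 0 and the median was -0.15. HSPA5, the main chaperone of that compartment, was at -0.58 (adjusted p = 0.169), and XBP1, a transcription factor of the unfolded protein response, at -0.59 (adjusted p = 0.183). Of 23 ATF4 stress genes, TRIB3 and STC2 were called, 4 were above 0 and the median was -0.10. Of 16 heat shock and mitochondrial chaperone genes, HSPE1 was called, 14 were above 0 and the median was 0.19. HSPH1, a co-chaperone of the HSP70 family, was at 0.57 (adjusted p = 0.285). Of 15 NF-kB genes TNFSF9 was called. TNFAIP3, a feedback inhibitor of NF-kB, had 158 and 835 in VHL-null cells at 18 h and 131 and 390 at 0 h, against 340 and 1279 in VHL-restored cells at 18 h and 125 and 327 at 0 h, and its interaction of -0.98 did not pass (adjusted p = 0.110).

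Mitochondrial and growth lists sat slightly above 0 with few calls. Respiratory chain subunits had 27 of 30 above 0, a median of 0.15 and 0 calls. COX7B, a subunit of cytochrome oxidase, was at 0.56 (adjusted p = 0.474). Mitochondrial ribosomal proteins had 32 of 37 above 0, a median of 0.15, and 1 call in each direction. Ribosome biogenesis (15 of 21 above 0, median 0.13), S phase (15 of 19, 0.11), and G2 and mitosis genes (10 of 15, 0.10) had 0 calls, although the S phase median was 0.22 in replicate 1 and 0.00 in replicate 2. The mitotic median was 0.22 in replicate 1 and -0.12 in replicate 2. Over all tested genes the median was -0.07 in replicate 1 and 0.02 in replicate 2. Targets of p53 had 0 calls among 17 (median 0.08, at -0.06 in replicate 1 and 0.12 in replicate 2), with CDKN1A, a cell cycle inhibitor, at 0.50 (adjusted p = 0.551) and DDB2, a DNA damage recognition gene, at -0.27 (adjusted p = 0.903).

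The remaining lists each held at most 1 call. Cholesterol and fatty acid synthesis had a median of 0.02 over 20 genes, with SCD called negative and FASN, fatty acid synthase, at 0.47 (adjusted p = 0.436). Lipid droplet genes had a median of 0.00 over 15 genes, with HILPDA called. Matrix, adhesion and coagulation genes had a median of -0.05 over 26, with F3 called. Immediate early genes had a median of -0.05 over 19 and 0 calls. The ufmylation list had 4 tested genes, of which UFSP2 was called and the other 3 lay between 0.05 and 0.08. In all, 22 of the 38 negative genes and 3 of the 5 positive ones were on a list.

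Known HIF targets below the brightness filter were not tested. VEGFA, the angiogenic growth factor, had 173 and 278 in VHL-null cells at 18 h and 112 and 163 at 0 h, against 49 and 41 in VHL-restored cells at 18 h and null entries on both arrays at 0 h. EGLN3, a HIF prolyl hydroxylase, had 132 and 393 in VHL-null cells at 18 h and 48 and 242 at 0 h, and was null on all 4 VHL-restored arrays. Both values were higher at 18 h than at 0 h in VHL-null cells within each replicate. CCND1, a G1 cyclin, was tested and had an interaction of -0.19, with 827 and 1315 in VHL-null cells at 18 h and 797 and 1231 at 0 h, against 224 and 460 in VHL-restored cells at 18 h and 213 and 337 at 0 h. SYT13, a synaptotagmin, was at -0.70 (adjusted p = 0.0997).

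The RCC4 arrays at other times did not enter the interaction test, although their brightness counted in the filter on tested genes (a filter on the 8 arrays alone kept the calls of 35 of the 38). They held 1 array per genotype, so they give values without a test. The VHL-null minus VHL-restored difference was above 0 in 7 of 38 at 1 h (median -0.26), 31 at 2 h (0.64), 7 at 4 h (-0.34) and 31 at 6 h (0.37), against 37.2%, 59.1%, 39.3% and 41.3% of all tested genes. The VHL-restored arrays labelled 1 h and 4 h broke the time order. ENO2 on the VHL-restored arrays had 205 and 259 at 0 h, 1293 at 1 h, 281 at 2 h, 1309 at 4 h, 611 at 6 h and 909 and 1200 at 18 h. BNIP3 on these arrays had 34 and 120 at 0 h, 516 at 1 h, 74 at 2 h, 562 at 4 h, 186 at 6 h and 310 and 511 at 18 h. The arrays at 2 h and 6 h belong to array set 1 and those at 1 h and 4 h to set 2, and whether set or label goes with this order was not tested. None of these arrays enters the interaction.

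After reoxygenation the genes parted. ADM had 508 at 1 h and 126 at 4 h in VHL-null cells, against 280 at 1 h and 45 at 4 h in VHL-restored cells. ENO2 had 1041 at 1 h and 910 at 4 h in VHL-null cells, against 1183 and 1274 in VHL-restored cells, and BNIP3 was at 412 in VHL-null and 532 in VHL-restored cells at 4 h. Over the 38 genes the genotype difference was above 0 in 16 after 1 h (median -0.10) and 14 after 4 h (-0.30), against 35.4% and 26.1% of all tested genes.

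**Figure D5:**
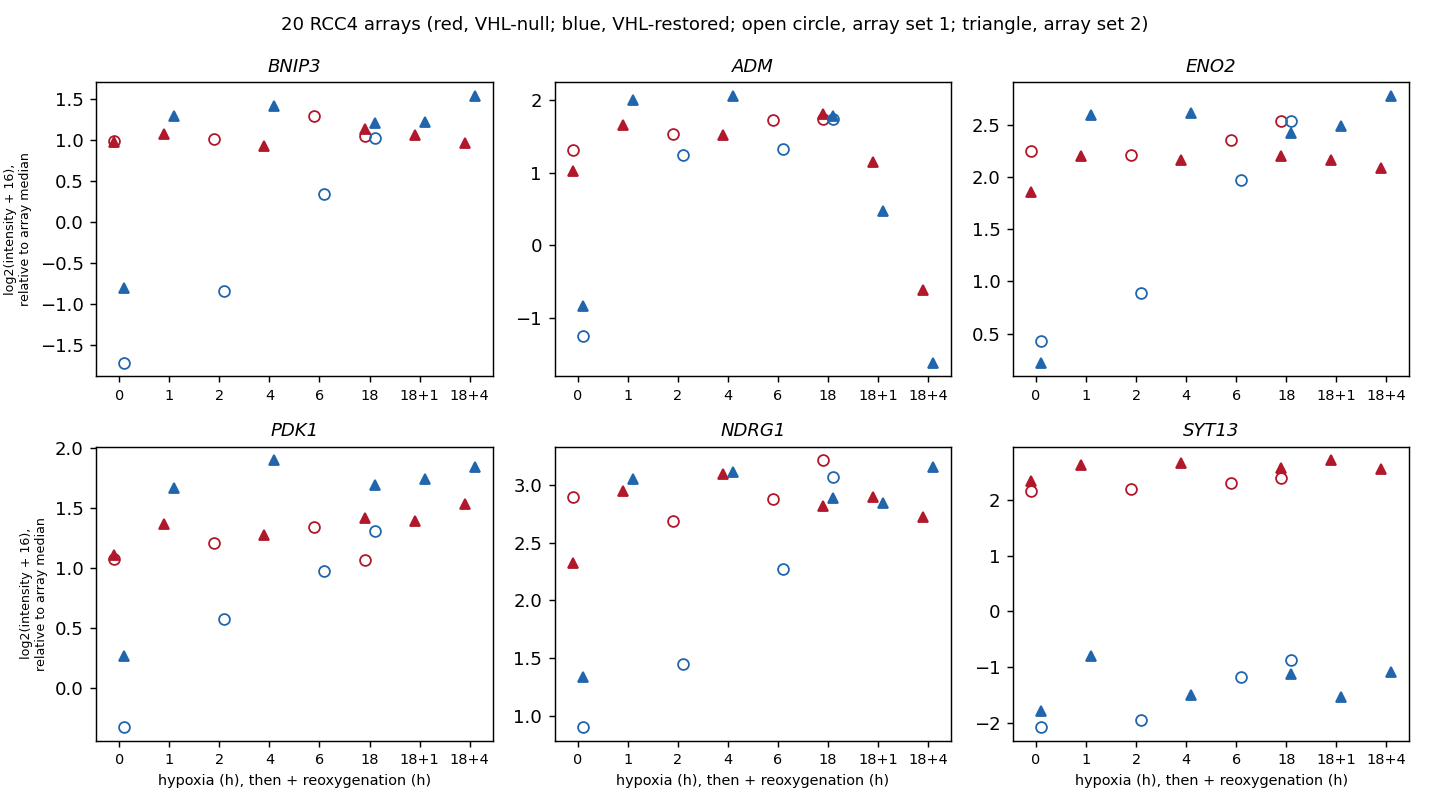
Log2(intensity + 16) relative to the array median on all 20 RCC4 arrays for 5 called genes and SYT13, against hours of hypoxia and, after 18 h, hours of reoxygenation. Red is VHL-null and blue VHL-restored; open circles are array set 1 and triangles set 2. The VHL-restored arrays at 1 h and 4 h are as high as those at 18 h for BNIP3, ADM, ENO2 and PDK1. For these genes the VHL-restored arrays at 2 h and 6 h lie between 0 h and 18 h, except BNIP3 at 2 h, which lies within its 0 h range. SYT13 is higher in VHL-null cells at every time.

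The 24 h hypoxia change was also read in H1299 lung and HCT116 colon carcinoma cells, with 1 array per time and genotype. It was positive for 30 of the 38 genes in HCT116 p53 wild-type cells (median 1.00), 28 in HCT116 p53-null cells (0.44) and 30 in H1299 p53-null cells (0.52), against 57.4%, 56.7% and 56.2% of all tested genes. In H1299 p53 wild-type cells it was positive for 5 (median -0.55), against 50.9%. BNIP3 changed by 3.09 in HCT116 p53 wild-type, 2.80 in HCT116 p53-null and 3.79 in H1299 p53-null cells, but by -3.37 in H1299 p53 wild-type cells, where the array labelled 24 h held the low value. The cause of that opposite direction was not tested. NRN1 changed by 0.15 and 0.09 in HCT116 p53 wild-type and p53-null cells and by -0.35 and -0.25 in H1299 p53 wild-type and p53-null cells. PPP1R3C changed by 0.03 and -0.01 in HCT116 p53 wild-type and p53-null cells and by -1.09 and 0.75 in H1299 p53 wild-type and p53-null cells.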

How the data were processed

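Labelled RNA of 30 samples was hybridised to Affymetrix arrays, 1 per sample, per the labels' protocols. The authors deposited linear intensity values per probe set, and the scaling, the software and the meaning of a null entry are not given in the sources used here. Groups come from the sample titles. Null entries were taken as 0, values were converted to log2(intensity + 16), and each array was centred on its median gene, because array medians spanned 0.903. Of 35356 probe sets, 16905 carry 1 gene symbol; the brightest per gene gave 12690 genes, and the upper 60% by mean over 30 arrays were tested. A fold change on this scale understates the change of dim genes.

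The interaction and the contrasts behind it were fitted with limma 3.58.1 in R 4.3.3, two-sided, on the 8 arrays, with a mean per group and the replicate number as a fixed block, and adjusted over 7614 genes by Benjamini-Hochberg. Replicate differences correlated at 0.794 to 0.916 over 6 pairs of groups, across genes. At these times the replicate number equals the array set, so the block removes a set difference as well as any pairing. P-values measure the spread between these samples only, and the small number of arrays limits the precision.

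Named genes are the 20 most negative and up to 10 most positive called genes, up to 4 per list by limma's t, and a fixed set of HIF, VHL, p53 and cell cycle genes; the remaining called genes and other values of interest were named after their values were seen. Members and lists were chosen with earlier results of these data known. Alternatives were the block, pseudocount, centring, normalization, filter, probe-set rule and each array left out. Sequences are from RefSeq on GRCh38.p14. EPAS1, whose probe set in the annotation also names MCL1, was not analysed here.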

Additional observations from a re-analysis of the deposited data

Results flagged for a closer look

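In the 43 genes below, the 18 h change itself differed between the VHL genotypes by limma's interaction test, and each is given as the VHL-null change minus the VHL-restored change on the log2 scale. Among genes of metabolism and mitochondria, the value was -2.27 for BNIP3, -2.00 for PPP1R3C, -1.84 for ENO2, -1.38 for PDK1, -1.08 for SCD, -1.04 for BNIP3L, -1.01 for PFKFB4, -0.96 for HILPDA, -0.91 for GYS1 and -0.87 for both HK1 and MRPL12. It was -0.81 for AK4, -0.79 for MPI, -0.76 for SLC25A36 and -0.66 for MTFP1. AGPAT5, an acyltransferase of phospholipid synthesis, stood at -1.05.

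Among secreted, membrane and signalling proteins it was -2.20 for ADM, -1.92 for NRN1, -1.72 for F3, -1.61 for EDN1, -1.27 for TGFA, -1.22 for TMEM158, -1.06 for CA12 and -1.03 for STC2. AKAP12, a scaffold of protein kinase A, was also at -1.03, the transmembrane protein TMEM45A at -0.89, and CDCP1, a surface substrate of Src kinases, at -0.76. PPP2R5B, a regulatory subunit of protein phosphatase 2A, was at -0.83, AGAP1, a regulator of Arf GTPases, at -0.79, and PHLDA1 at -0.73. NDRG1 was at -1.45, TRIB3 at -1.29, UFSP2 at -1.81, UPRT at -0.98, ETV5 at -0.82, SLC35E1 at -0.80, DDX41 at -0.71 and ANKZF1 at -0.69. The positive values were 1.20 for TNFSF9, 0.84 for CDC123, 0.83 for ACOT7, 0.74 for HSPE1 and 0.68 for MRPL15.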

How the results depend on the processing

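The number of calls (43, with 38 negative and 5 positive) changed with several choices. Without the replicate block there were 0 calls, 0 positive and 0 negative (limma, 45 genes at an unadjusted p below 0.05), and a fit of the 2 interaction values per gene gave 351, 180 positive and 171 negative. Uncentred arrays left 4, with 0 positive and 4 negative (ADM, CA12, ENO2 and NRN1). Quantile normalization left 17, with 0 positive and 17 negative. Testing all genes without the brightness filter left 0, with 0 positive and 0 negative (452 at an unadjusted p below 0.05). A pseudocount of 64 gave 3 positive calls, which included HSPE1 and MRPL15 but not TNFSF9, CDC123 or ACOT7. The upper 40% of genes gave 15 positive calls, HSPE1 and MRPL15 among them. Leaving out 1 array gave 2 to 117 calls, 0 to 57 positive and 2 to 86 negative, with the low ends from the VHL-null 0 h arrays. None of the 43 changed sign except CA12 on the linear scale, at 23.0. Leaving out 1 array turned the sign of these uncalled genes, whose values ran from -0.351 to 0.0319 for GSK3B, -0.0589 to 0.175 for DDRGK1, -0.238 to 0.401 for ODR4, -0.00422 to 0.107 for CDK5RAP3, -0.198 to 0.216 for HIF1A, -0.425 to 0.0515 for CCND1, -0.566 to 0.244 for ATF3 and -0.374 to 0.105 for PLK1. The causes were not tested. With 2 arrays per group and 3 residual degrees of freedom, small interactions were not detectable. The prior degrees of freedom also moved, from 13.3 in the main fit to 3.76 without the block and 2.45 without the brightness filter. They were infinite for the fit of 2 values per gene. Counts of calls under different choices therefore also carry this change in weight.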

Other observations

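A further 7446 probe sets of like brightness carry no single gene symbol here, and the same limma fit called 17 of them (0.228%), 15 negative and 2 positive. The most negative, EOS19237, had 331 and 312 in VHL-null cells at 18 h and 267 and 319 at 0 h, against 435 and 623 in VHL-restored cells at 18 h and 132 and 191 at 0 h (interaction -1.50, adjusted p = 3.1e-05). EOS22691 was the most positive, at 0.87, with 482 and 479 in VHL-null cells at 18 h and 414 and 442 at 0 h, against 376 and 509 in VHL-restored cells at 18 h and 657 and 814 at 0 h.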
